A study of Oryza sativa with 23 samples.

Results

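In rice plants moved to a solution with excess iron, 113 of 35679 measured genes fell in the root and rose in the leaf, in both of the varieties studied. A gene was counted here when the mean transcript level of the excess-iron libraries was at most 0.5 times the control mean in roots of Lachit and of Hacha, and at least 2 times the control mean in leaves of both. Levels are TPM (a transcript level corrected for transcript length and for library size) summed over the transcripts of a gene, 0.5 TPM was added to every group mean, which understates the changes of low genes, and at least 1 group mean had to reach 5 TPM. The genes were thus chosen by the TPM group means of every excess-iron comparison of the series, so the size and direction of the iron response in these genes are given below as a description, with no test, and rising and falling refer to group means. The rule set no threshold on the comparisons between Lachit and Hacha at a given organ and solution, and only these 4 comparisons carry tests. They use the same libraries as the rule, so they are not independent of the choice of members.

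The plants were 11 days old when sampled. Excess-iron plants spent the last 2 days, from day 9, in a full-strength nutrient solution to which 15 mM iron sulfate had been added at pH 5.2, and control plants stayed in the solution with 50 µM iron as sodium EDTA at pH 6.2. Acidity and sulfate thus differ together with iron, and their parts cannot be told apart. The labels give Lachit as derived from CRM 13-3241 and Kalinga 2, and Hacha as derived from CRM 53 and IR 64. Whole roots and L2 leaves were profiled. The 23 libraries are those of excess-iron Lachit roots (3), control Lachit roots (3), excess-iron Hacha roots (2; no further replicate was analysed here), control Hacha roots (3), and 3 each of excess-iron Lachit leaves, control Lachit leaves, excess-iron Hacha leaves and control Hacha leaves. The labels do not say whether libraries of a group came from separate plants or pots, so the spread behind each p-value is that between these libraries and may be technical. They are bulk RNA, in which fewer cells of a type and less RNA per cell cannot be told apart.

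Ferrous iron is abundant in flooded, acid soils, where it enters rice roots in amounts the plant cannot use. Plants limit the damage by holding iron back at the root surface, by storing it in vacuoles and in plastid ferritin, and by detoxifying the oxygen radicals that free iron gives rise to. Iron that passes the root is carried in the xylem to the leaf, where surplus iron causes the brown spotting known as bronzing. Root and leaf therefore meet the surplus at different times and in different amounts, and a gene that moves in opposite directions in the organs is a contrast between them under 1 treatment. The files give gene identifiers of the Rice Annotation Project without names, and the reference table used here matched 1 identifier of the series and named none of the 113 genes, so each is given by its identifier alone and its protein is not named.

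A fall in the root and a rise in the leaf was an uncommon combination. Of the 21086 genes with a group mean of at least 5 TPM, 2875 were at least 2-fold lower in excess-iron roots of both varieties and 3234 were at least 2-fold higher in excess-iron leaves of both. The 113 genes with both changes are 3.93% of the first list, 3.49% of the second and 0.536% of all 21086. The opposite combination, up in roots and down in leaves, held for 35 genes by the same thresholds. The rule's edge was close on either side. OS03G0805100, just inside, was 2.02-fold higher in excess-iron Hacha leaves, its smallest change, and OS04G0669450 was 2.02-fold lower in excess-iron Lachit roots. OS05G0443800, just outside, had a smallest log2 change of 0.999878, in Lachit roots, and OS03G0366000 had one of 0.985913, in Lachit leaves. A threshold of 1.5-fold would have taken in 404 genes, and a threshold of 3-fold would have left 18.

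**Figure D1:**
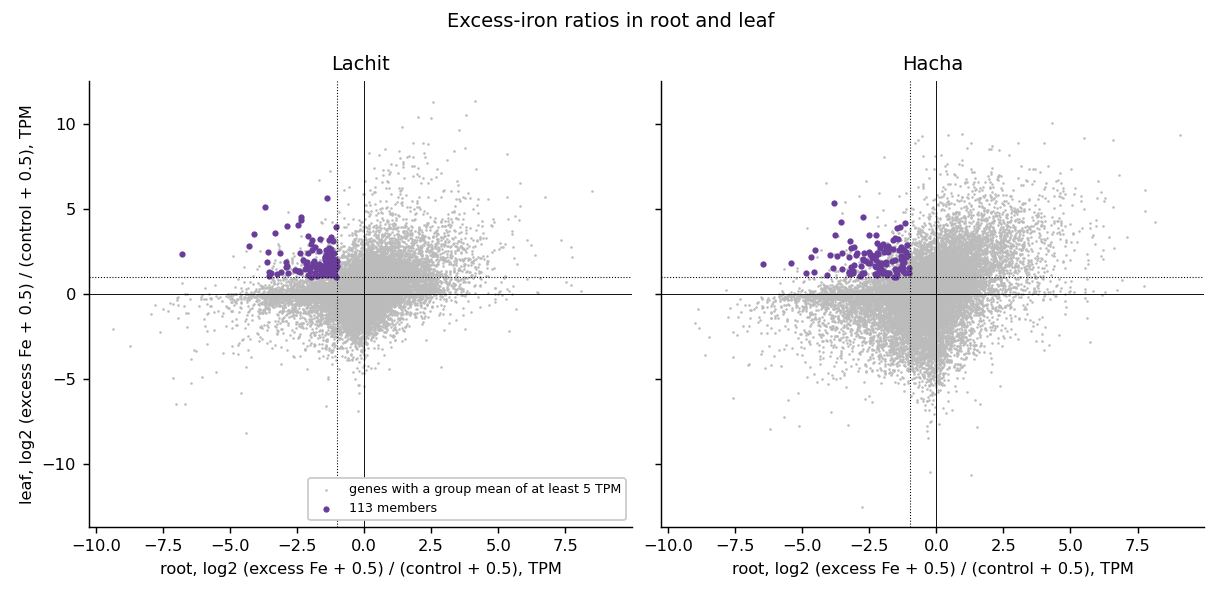
Ratio of excess-iron to control group means in root (horizontal axis) and leaf (vertical axis), each as log2 of TPM + 0.5, for Lachit (left) and Hacha (right). Grey points are the 21086 genes with a group mean of at least 5 TPM, purple points are the 113 genes, and dotted lines mark the 2-fold thresholds in root and leaf; the purple points fill the upper left corner of both panels by construction, and lie from the threshold itself out to a root log2 ratio of -6.79 in Lachit and -6.47 in Hacha.

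Most members moved by more than the rule asked. The median member was 2.99-fold lower in excess-iron than in control Lachit roots and 4.40-fold lower in Hacha roots. In leaves the median member was 3.32-fold higher under excess iron in Lachit and 3.91-fold higher in Hacha. A change of at least 4-fold was seen for 36 members in Lachit roots and 65 in Hacha roots, and for 37 in Lachit leaves and 56 in Hacha leaves. Only 8 members reached 4-fold in all 4 comparisons: OS01G0878700, OS04G0460300, OS04G0683600, OS05G0209600, OS05G0578600, OS06G0549300, OS09G0521400 and OS09G0539000. Across the 113 members the log2 ratios of the varieties had Pearson's r = 0.56 in root and 0.32 in leaf, whereas root and leaf ratios within a variety had r = -0.18 in Lachit and 0.02 in Hacha. These correlations describe genes, not samples, within a range that the rule has cut off.

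The separation of the libraries was wide for most members, more so in root than in leaf. TPM of every excess-iron library lay below every control for 111 members in Lachit roots and 110 in Hacha roots, where 35.7% and 52.4% of the 21086 genes did the same. TPM of every excess-iron library lay above every control for 95 members in Lachit leaves and 90 in Hacha leaves, against 40.4% and 34.3% of the 21086 genes. Since the rule used these contrasts, nothing is read from the excess over those shares. The groups did not overlap in all 4 comparisons for 74 members, in 3 for 34, in 2 for 4, and in none for OS11G0168250. No share over all genes was computed for these joint counts, and nothing is read from them. In the fit on counts, which scales each library to its typical gene, 83 members kept a change of at least 2-fold in all 4 comparisons and 112 kept one of at least 1.5-fold. The rule applied to TMM-scaled CPM in place of TPM gave 71 genes, 64 of them among the 113.

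A pair of leaf libraries stood apart and bears on the leaf values. Control Hacha leaf library 1 had a median member level 1.13 log2 units above the other controls of its group, with 106 of 113 members above their mean log2 level. In it 100 members exceeded both other controls and 22 exceeded the lowest excess-iron library, but none exceeded all of the excess-iron libraries. Excess-iron Lachit leaf library 3 lay 1.06 log2 units above the Lachit leaf controls, where libraries 1 and 2 lay 1.76 and 2.14 units above. Both libraries also had lower mean correlations with their replicates over all genes, 0.938 for the Lachit library against 0.969 and 0.950, and 0.967 for the Hacha library against 0.980 for each of the others. The value of 0.967 was not low among leaf libraries, since excess-iron Hacha leaf library 1 had 0.963 and excess-iron Lachit leaf library 2 had 0.950. Without the 2 leaf libraries that stood apart the median rise became 3.85-fold in Lachit leaves, where 109 members stayed at 2-fold or more and 111 had no overlap. In Hacha leaves it became 5.62-fold, where all 113 stayed and 112 had no overlap. Both libraries were picked after the data were seen and lie towards the other treatment. Larger rises and less overlap thus follow in part from that choice. No share over all genes was computed for these counts, and nothing is read from them.

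**Figure D2:**
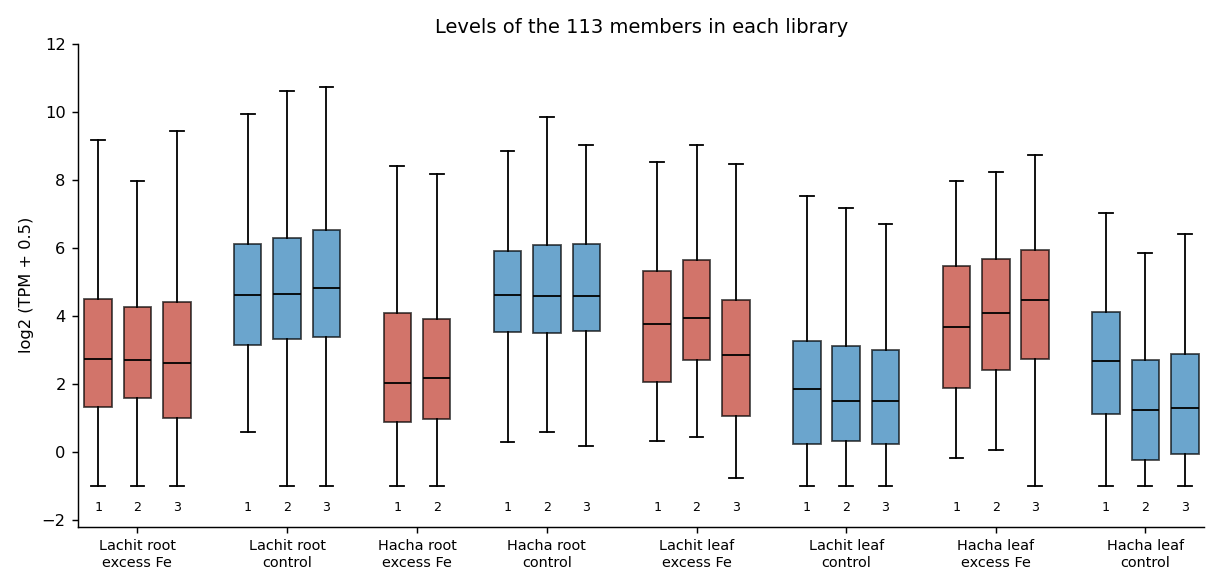
Levels of the 113 members in each of the 23 libraries, as log2 of TPM + 0.5 (vertical axis); red boxes are excess-iron and blue boxes control libraries, numbered by replicate. Boxes span the middle quartiles with the median as a line, whiskers follow the usual box-plot rule, and members beyond the whiskers are not drawn. Excess-iron roots lie below control roots and excess-iron leaves above control leaves, with control Hacha leaf library 1 high and excess-iron Lachit leaf library 3 low in their groups.

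In sum the members took a smaller share of root RNA and a larger share of leaf RNA. Their summed level without OS11G0704500, the most abundant, was 4600 ± 472 TPM in excess-iron Lachit roots and 14220 ± 954 TPM in control Lachit roots (SD, n = 3 each). It was 2434 ± 55.2 TPM in excess-iron Hacha roots (n = 2) and 12124 ± 1107 TPM in control Hacha roots (n = 3). In leaves it was 4367 ± 1287 TPM under excess iron and 1246 ± 208 TPM in control for Lachit, and 4979 ± 937 TPM under excess iron and 1081 ± 572 TPM in control for Hacha (SD, n = 3 each). The excess-iron sums thus came to lie in the same range in the 2 organs of a variety in Lachit, while in Hacha the leaf sum was above the root sum.

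The median of the members' highest group means was 40.9 TPM, and 34 members (30.1%) reached 100 TPM, where the same median over the 21086 genes was 31.2 TPM and 20.1% reached 100 TPM. Over the 35 genes up in roots and down in leaves it was 54.5 TPM and 40% reached 100 TPM. All of the 12 most abundant members had their highest mean in control roots, between 259 and 10353 TPM, and all 12 were at least 2-fold higher in root than in leaf in both control varieties. None of the 12 kept such a difference in either direction in both varieties under excess iron.

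OS11G0704500, on chromosome 11 by its identifier, alone made up between 38.5% and 63.7% of the members' summed TPM in the 8 groups. In Lachit roots it had 3736, 3542 and 4572 TPM under excess iron, against 8200, 9639 and 8887 TPM in control. In Hacha roots it had 4298 and 4239 TPM under excess iron, against 8669, 11616 and 10775 TPM in control. In leaves it had 2928, 4340 and 2098 TPM under excess iron against 1020, 964 and 738 TPM in control Lachit, and 7254, 5701 and 5336 TPM under excess iron against 1447, 773 and 824 TPM in control Hacha. No excess-iron library overlapped the controls in any of the 4 comparisons, and the fall was 2.26-fold in Lachit and 2.43-fold in Hacha roots while the rise was 3.44-fold in Lachit and 6.01-fold in Hacha leaves. The control root level was 9.81 times the control leaf level in Lachit and 10.2 times in Hacha, and under excess iron the leaf stood at 0.79 times the root level in Lachit and 1.43 times in Hacha.

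OS03G0223400, the next most abundant, behaved differently in the roots of the varieties. In Lachit roots it had 574, 573 and 1440 TPM under excess iron, against 2471, 1849 and 1699 TPM in control. In Hacha roots it had 79.8 and 94.7 TPM under excess iron, against 1118, 1156 and 1402 TPM in control. The fall was 2.33-fold in Lachit, where library 3 came close to the controls, and 14.0-fold in Hacha. In leaves it had 96.2, 128 and 49.2 TPM under excess iron against 24.3, 25.9 and 23.3 TPM in control Lachit, and 159, 156 and 126 TPM under excess iron against 17.7, 9.15 and 11.7 TPM in control Hacha.

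OS01G0323600 had 383, 436 and 400 TPM in excess-iron Lachit roots, against 1703, 2287 and 1631 TPM in control Lachit roots. In Hacha roots it had 289 TPM in both excess-iron libraries, against 1596, 2023 and 2195 TPM in control. The leaf levels were 370, 518 and 213 TPM under excess iron against 164, 139 and 103 TPM in control Lachit, and 240, 302 and 385 TPM under excess iron against 129, 45.7 and 55.3 TPM in control Hacha. Under excess iron its leaf and root levels were close, with a leaf to root ratio of 0.903 in Lachit and 1.07 in Hacha, whereas in control the root level was 13.8 times the leaf level in Lachit and 25.1 times in Hacha. OS02G0601300 and OS01G0905800 had control root means of 1753 and 1466 TPM in Lachit and 1183 and 938 TPM in Hacha. The other members among the 12 were OS12G0623900, OS02G0625500, OS01G0866200, OS03G0718100, OS01G0770700, OS04G0652700 and OS02G0103700, which fell between 2.17-fold and 8.65-fold in roots and rose between 2.02-fold and 9.62-fold in leaves.

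**Figure D3:**
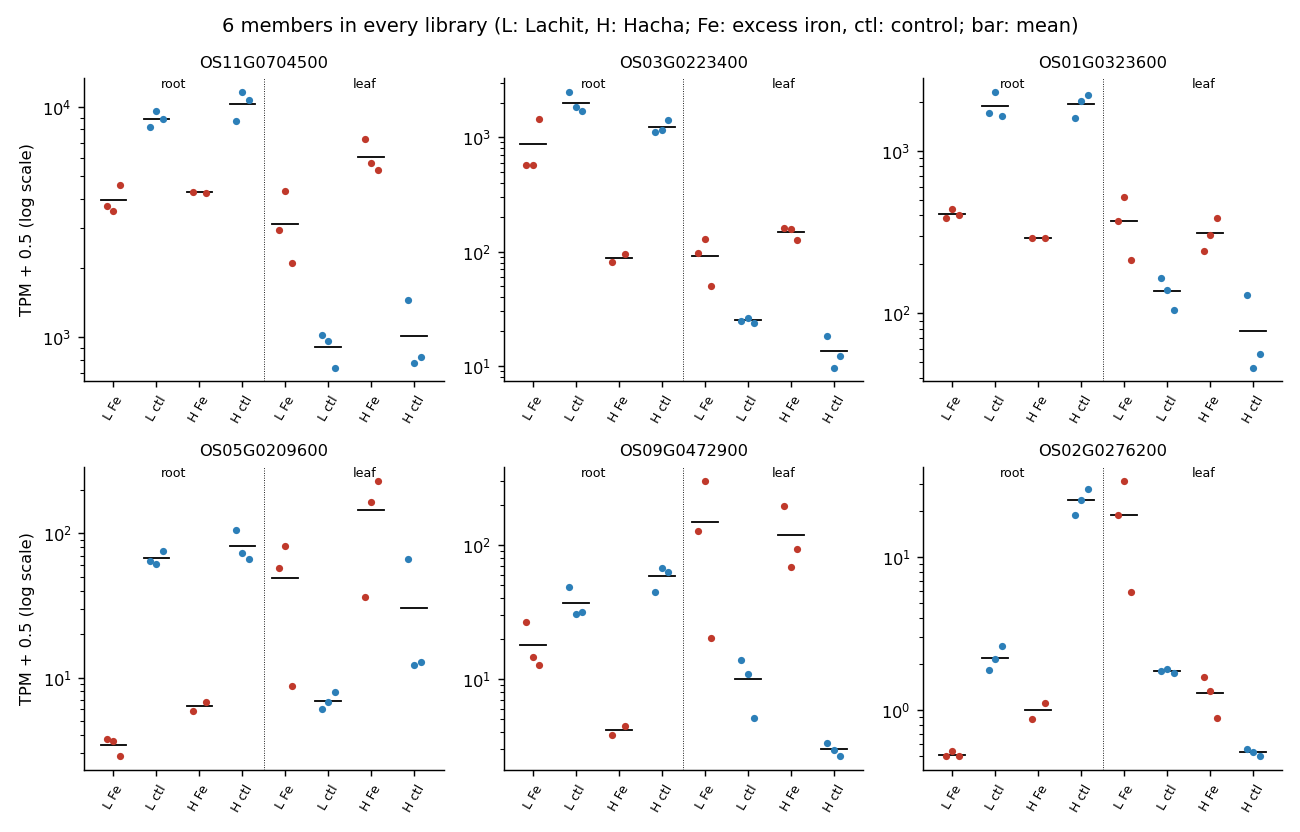
TPM + 0.5 on a log scale (vertical axes) of 6 members in every library, excess iron in red and control in blue, with roots left and leaves right of the dotted line in each panel (L, Lachit; H, Hacha; Fe, excess iron; ctl, control; bars, group means). In roots the red points lie below the blue points of the same variety in all 6 panels, and in leaves they lie above them, except where control Hacha leaf library 1 of OS05G0209600 exceeds an excess-iron library.

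The members with the largest opposite change were less abundant. OS01G0941200 had 0.243, 0.128 and 0.0672 TPM in excess-iron Lachit roots, against 63.2, 58.3 and 91.6 TPM in control Lachit roots. It had 0.318 and 0.573 TPM in excess-iron Hacha roots, against 66.8, 82.5 and 101 TPM in control Hacha roots. After addition of 0.5 TPM this is a 111-fold fall in Lachit and an 88.6-fold fall in Hacha, the largest of the set in both. Its rise in leaves reached only a low level, with 6.26, 9.06 and 1.03 TPM under excess iron against 0.504, 0.966 and 0.508 TPM in control Lachit, and 0.783, 3.37 and 2.08 TPM under excess iron against 0.589, 0.0947 and 0.0913 TPM in control Hacha.

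OS09G0539000 and OS05G0578600 had the next largest opposite changes. OS09G0539000 had 20.3, 30.7 and 0.981 TPM in excess-iron Lachit leaves against 0.614, 0.687 and 0.403 TPM in control, and 71.2, 66.9 and 30.1 TPM in excess-iron Hacha leaves against 5.83, 0.836 and 0.951 TPM in control. OS05G0578600 had 21.3, 35.0 and 0.789 TPM in excess-iron Lachit leaves against 0, 0.0482 and 0.177 TPM in control, and 21.8, 36.7 and 39.7 TPM in excess-iron Hacha leaves against 16.9, 0.131 and 0 TPM in control. In both genes excess-iron Lachit leaf library 3 was far below its replicates and control Hacha leaf library 1 far above its own. In roots OS05G0578600 averaged 0.141 ± 0.046 TPM under excess iron and 7.80 ± 0.87 TPM in control in Lachit (SD, n = 3 each), and 0.112 ± 0.018 TPM under excess iron (n = 2) and 4.26 ± 2.2 TPM in control (n = 3) in Hacha.

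OS09G0472900 was the member of this group with the highest leaf level. It had 126, 301 and 19.6 TPM in excess-iron Lachit leaves against 13.3, 10.5 and 4.57 TPM in control, and 195, 67.9 and 93.7 TPM in excess-iron Hacha leaves against 2.84, 2.43 and 2.14 TPM in control. In roots it had 26.3, 14.1 and 12.1 TPM under excess iron against 48.3, 30.1 and 31.1 TPM in control Lachit, a 2.05-fold fall, and 3.32 and 3.98 TPM under excess iron against 44.1, 67.0 and 62.7 TPM in control Hacha, a 14.1-fold fall. OS05G0209600 fell 19.8-fold in Lachit and 12.9-fold in Hacha roots and rose 7.14-fold in Lachit and 4.76-fold in Hacha leaves. OS04G0683600 fell 9.93-fold in Lachit and 15.9-fold in Hacha roots and rose 11.8-fold in Lachit and 4.94-fold in Hacha leaves.

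Some members were close to absent in a group, and ratios for these are bounds or carry wide counting intervals. OS04G0460400 had no read in the excess-iron roots of either variety. Set against a floor of 3 reads over the group, control roots were at least 79.4-fold higher in Lachit, from 222 reads, and at least 29.5-fold higher in Hacha, from 164 reads. In Lachit leaves the same gene had 140 reads under excess iron (70, 68 and 2 in libraries 1, 2 and 3) and none in control. Against the same floor this is at least 46.1-fold higher under excess iron, a bound that rests on libraries 1 and 2. OS04G0666800 had 1 read in excess-iron Hacha roots and 507 in control Hacha roots, a ratio of 274 with an exact 95% interval from 48.9 to 10837 that covers counting error only.

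Under control conditions most members had a higher root than leaf level. Of the 113 members, 107 were higher in root than in leaf in control Lachit and 102 in control Hacha. The median log2 ratio of leaf to root was -3.13 in control Lachit and -2.90 in control Hacha, where the medians over the 21086 genes were -0.66 and -0.76. At least a 2-fold higher root level in both varieties was seen for 89 members, at least a 2-fold higher leaf level for 0, and the remaining 24 passed neither. Under excess iron the median log2 ratio of leaf to root was 0.66 in Lachit and 1.41 in Hacha, and 69 and 90 members were higher in leaf than in root. Such a shift towards the leaf follows in part from the rule, which raises the leaf to root ratio by at least 4-fold, so it is a description.

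Under excess iron the same thresholds were applied to both varieties at once. Of the 89 members at least 2-fold higher in root in both control varieties, 58 passed neither threshold in both varieties, which includes members with a large difference in 1 variety, 24 became at least 2-fold higher in leaf in both, and 7 stayed at least 2-fold higher in root. These 7 were OS01G0309100, OS02G0648100, OS02G0802500, OS04G0450701, OS06G0700601, OS08G0521000 and OS12G0576700. Of the 24 members that passed neither threshold in control, 23 were at least 2-fold higher in leaf under excess iron, and OS02G0276200 again passed neither. With no threshold, 54 members went from a higher root level to a higher leaf level in both varieties. The highest of the 8 group means was that of control Lachit roots for 37 members, control Hacha roots for 35, excess-iron Hacha leaves for 30 and excess-iron Lachit leaves for 11.

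**Figure D4:**
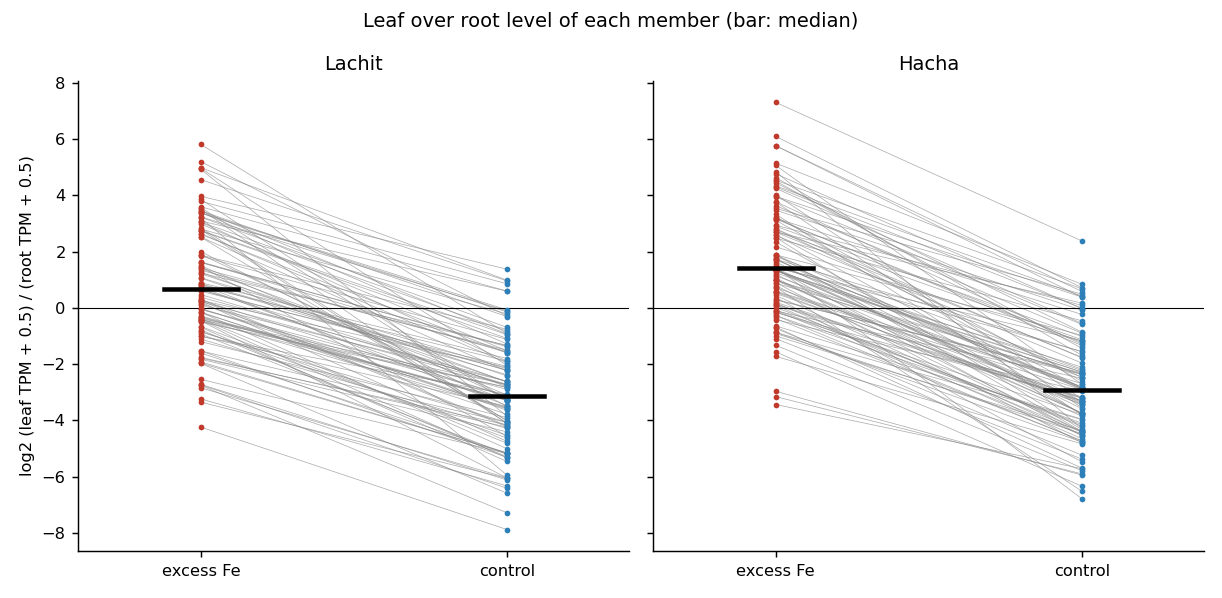
Leaf to root ratio of the 113 members as log2 of group means + 0.5 TPM (vertical axis), under excess iron and in control, for Lachit (left) and Hacha (right); each thin line joins 1 member. The medians are 0.66 under excess iron and -3.13 in control for Lachit, and 1.41 under excess iron and -2.90 in control for Hacha, so that most lines cross or approach 0.

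Genes restricted to the root were set beside the members. Both lists were chosen on values of these libraries, so their levels are a description and no difference between them is read. A list of 288 genes, none of them a member, had at least 20 TPM in control Lachit roots and at most 0.5% of that level in control Lachit leaves; it was chosen after the data were seen. Their summed TPM in excess-iron leaves was between 0.158% and 2.66% of the control-root sum of the same variety, and between 0.147% and 0.354% in control leaves. The median such gene, of those with at least 5 TPM in control roots, stood at 0.0667% to 0.185% of its control-root level in excess-iron leaves and at 0.131% to 0.351% in control leaves. The 89 members that were higher in control roots summed to between 19.5% and 47.1% of their control-root level in excess-iron leaves, and to between 5.72% and 11.5% in control leaves. A list of 378 leaf-restricted genes chosen the same way summed in excess-iron leaves to between 6.08% and 54.8% of the control-leaf level, and in roots to between 0.184% and 2.67% of it. The root values were 2.67% and 2.07% in excess-iron Hacha roots and between 0.184% and 0.639% in all other root libraries. In excess-iron Lachit leaf library 3 the sum of leaf-restricted genes was 54.8%, the highest, and the members' sum was 19.5%, the lowest of the excess-iron leaves. The part of such differences between libraries in the members' rise was not tested.

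Lachit and Hacha were then compared at each organ and solution, which asks whether the members' level depends on the variety. All 113 members passed the low-count filter in both organs, among 27479 genes tested in root and 25505 in leaf. Replicates varied more in leaf, with a biological coefficient of variation of 33.6% against 17.7% in root, so the leaf tests resolve only larger differences. A member was called at an adjusted p below 0.05 in edgeR's quasi-likelihood test. The share of all genes is given for this fit only. Counts under other settings therefore do not tell a change of the members from a change of all genes. Of the called members, those described below are the ones with the largest differences in each direction that reached 10 CPM (counts scaled to library size) in the higher group.

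In excess-iron roots 58 members differed between the varieties, which is 51.3% of the set against 46.7% of all genes tested. Of these, 45 were higher in Lachit, against 26.6% of all genes, and 13 were lower in Lachit, against 20.1%. The count was 21 in a fit of both organs together and 13 in a test against a minimum log2 difference of 1. The median log2 difference, Lachit over Hacha, was 0.38 over the members and 0.08 over all genes. OS03G0223400, given above at 574, 573 and 1440 TPM in Lachit and 79.8 and 94.7 TPM in Hacha, was higher in Lachit by 3.26 ± 0.44 on the log2 scale (SE, adjusted p = 0.000193 by edgeR). OS09G0472900 was higher in Lachit by 2.20 ± 0.39 (adjusted p = 0.00107 by edgeR), and is also given above.

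OS01G0198500 had 16.3, 17.5 and 7.94 TPM in excess-iron Lachit roots and 2.95 and 3.53 TPM in excess-iron Hacha roots, a log2 difference of 2.01 ± 0.27 (SE, adjusted p = 0.00019 by edgeR). The lower side was led by OS06G0196700, which had 2.21, 3.45 and 1.78 TPM in Lachit and 6.45 and 5.02 TPM in Hacha, a log2 difference of -1.30 ± 0.20 (adjusted p = 0.000403 by edgeR). OS06G0700601 had 29.4, 53.6 and 26.9 TPM in Lachit and 67.5 and 84.7 TPM in Hacha, a log2 difference of -1.15 ± 0.25 (adjusted p = 0.0037 by edgeR). OS09G0511700 had 16.4, 14.1 and 15.7 TPM in Lachit and 29.5 and 24.7 TPM in Hacha, a log2 difference of -0.89 ± 0.17 (adjusted p = 0.00189 by edgeR). For each of these 6 genes the libraries of the varieties did not overlap. The genes were picked as the largest called differences, with 2 Hacha libraries, so the lack of overlap adds no support. In a fit of both organs together the calls of OS09G0472900, OS06G0196700 and OS06G0700601 were lost (adjusted p = 0.0659, 0.0524 and 0.0958 by edgeR). OS11G0704500 was not called, with a log2 difference of -0.17 ± 0.19 (adjusted p = 0.483 by edgeR).

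In control roots 38 members differed, 33.6% of the set against 29.7% of all genes tested, 30 of them higher in Lachit (14.5% of all genes) and 8 lower (15.2%). The direction of this count depends on the scaling: with library totals in place of TMM factors 22 were higher and 16 lower, and with limma on TPM 21 were higher and 20 lower. The median log2 difference was 0.07 over the members and 0.01 over all genes. The count was 11 in a fit of both organs together, 4 in a test against a minimum log2 difference of 1, 20 without control Hacha root library 2 and 25 without library 3.

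OS02G0802500 had 420, 168 and 168 TPM in control Lachit roots and 42.6, 59.0 and 89.3 TPM in control Hacha roots, a log2 difference of 2.11 ± 0.34 (SE, adjusted p = 0.000799 by edgeR). OS01G0198500 was again higher in Lachit, with 41.5, 43.2 and 37.6 TPM against 13.3, 12.2 and 13.4 TPM in Hacha, a log2 difference of 1.79 ± 0.21 (adjusted p = 8.57e-05 by edgeR). OS04G0666800 had 37.8, 26.9 and 44.5 TPM in Lachit and 14.1, 10.2 and 15.9 TPM in Hacha, a log2 difference of 1.58 ± 0.28 (adjusted p = 0.00145 by edgeR). OS02G0276200 went the other way, with 1.33, 1.65 and 2.13 TPM in Lachit and 18.4, 23.4 and 27.6 TPM in Hacha, a log2 difference of -3.61 ± 0.27 (adjusted p = 2.19e-06 by edgeR). In roots this gene reached the minimum mean of 5 TPM only in control Hacha, so its test here is a description. OS09G0502500 had 6.10, 6.58 and 7.39 TPM in Lachit and 17.8, 16.5 and 17.4 TPM in Hacha, a log2 difference of -1.22 ± 0.15 (adjusted p = 0.000111 by edgeR). The call of OS03G0212800, at -0.68 ± 0.23 (adjusted p = 0.0486 by edgeR), was lost under 13 of 18 alternatives, where its adjusted p ran from 0.0027 to 1; the lost calls include the fits without control Hacha root library 1, 2 or 3 or control Lachit root library 1 or 2 (adjusted p between 0.0518 and 0.162).

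In excess-iron leaves 27 members differed, 23.9% of the set against 42.6% of all genes tested, and most of them were lower in Lachit. Of the 27, 4 were higher in Lachit, against 22.5% of all genes, and 23 were lower, against 20.1%. The median log2 difference was -0.58 over the members and 0.06 over all genes. With library totals 6 were higher and 13 lower. Without the 2 leaf libraries that stood apart, 9 were higher and 22 lower, 19 of these 31 being among the 27. The count was 8 in a test against a minimum log2 difference of 1, 16 without excess-iron Hacha leaf library 1, 17 without library 2 of that group, and 12 without excess-iron Lachit leaf library 1.

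OS02G0276200 had 18.4, 31.2 and 5.46 TPM in excess-iron Lachit leaves and 1.15, 0.829 and 0.392 TPM in excess-iron Hacha leaves, a log2 difference of 4.17 ± 0.68 (SE, adjusted p = 0.001 by edgeR). This gene was lower in Lachit in roots and higher in Lachit in leaves in both solutions, so that its order between the varieties followed the organ. In excess-iron roots it had 0, 0.0382 and 0 TPM in Lachit and 0.380 and 0.617 TPM in Hacha. In control leaves it had 1.30, 1.37 and 1.26 TPM in Lachit and 0.0586, 0.0361 and 0 TPM in Hacha. The low values rest on 1 read in excess-iron Lachit roots and 2 in control Hacha leaves. OS02G0276200 reached the minimum mean of 5 TPM only in control Hacha roots and excess-iron Lachit leaves. These are the higher groups of the tests quoted for it, so those tests are a description and give no support. OS02G0736100 had 24.8, 21.2 and 16.3 TPM in Lachit and 8.01, 7.00 and 12.5 TPM in Hacha, a log2 difference of 1.16 ± 0.23 (adjusted p = 0.00269 by edgeR). OS11G0525200 had 48.5, 48.8 and 33.1 TPM in Lachit and 13.0, 18.8 and 27.5 TPM in Hacha, a log2 difference of 0.80 ± 0.28 (adjusted p = 0.0416 by edgeR), and its call was lost under 6 of 20 alternatives, among them the fits without library 1 or 2 of either excess-iron leaf group or control Lachit leaf library 1 (adjusted p between 0.0584 and 0.118). OS06G0196700 had 3.16, 3.80 and 1.97 TPM in Lachit and 14.7, 34.7 and 33.3 TPM in Hacha, a log2 difference of -3.51 ± 0.65 (adjusted p = 0.00198 by edgeR).

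OS11G0211800 and OS03G0198600 were also among the largest differences, but with wide spread. OS11G0211800 had 11.7, 30.8 and 0.349 TPM in excess-iron Lachit leaves and 99.1, 187 and 132 TPM in excess-iron Hacha leaves, a log2 difference of -3.54 ± 1.11 (SE, adjusted p = 0.0254 by edgeR; 0.053 without excess-iron Hacha leaf library 2 and 0.0837 without excess-iron Lachit leaf library 1). OS03G0198600 had 1.45, 2.85 and 1.21 TPM in Lachit and 5.17, 20.4 and 24.7 TPM in Hacha, a log2 difference of -3.47 ± 1.07 (adjusted p = 0.0243 by edgeR). Its adjusted p rose to between 0.0514 and 0.0797 when library 2 or 3 of excess-iron Hacha leaves or library 1 or 3 of excess-iron Lachit leaves was left out. The most abundant member, OS11G0704500, was lower in Lachit by a log2 difference of -1.32 ± 0.38 (adjusted p = 0.0173 by edgeR).

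In control leaves only 6 members differed, 5.31% of the set against 19% of all genes tested, 2 of them higher in Lachit (10.4% of all genes) and 4 lower (8.65%). In a fit of both organs together 19 differed, DESeq2 called 15, and a test against a minimum log2 difference of 1 left 1. Without control Hacha leaf library 1, which had raised member levels, 13 members differed, 11 of them higher in Lachit. Without both leaf libraries that stood apart 24 differed, 18 of them higher. Leaving out excess-iron Lachit leaf library 3 alone gave 14, and leaving out control Lachit leaf library 1 gave 3. The share of all genes was not computed under these settings, so the change in direction is not read as particular to the members. OS02G0625500 had 150, 126 and 101 TPM in control Lachit leaves and 47.0, 30.4 and 53.5 TPM in control Hacha leaves, a log2 difference of 1.54 ± 0.30 (SE, adjusted p = 0.00433 by edgeR). OS06G0196700 had 0.626, 0.770 and 0.894 TPM in Lachit and 12.0, 2.14 and 2.12 TPM in Hacha, a log2 difference of -2.75 ± 0.64 (adjusted p = 0.0114 by edgeR; 0.0557 without control Lachit leaf library 1 and 0.0621 with limma on TPM). OS09G0511700 had 35.5, 31.4 and 25.7 TPM in Lachit and 89.2, 48.5 and 50.3 TPM in Hacha, a log2 difference of -0.997 ± 0.27 (adjusted p = 0.0234 by edgeR), a call lost when control Hacha leaf library 1 or any control Lachit leaf library was left out (adjusted p between 0.0597 and 0.0884).

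**Figure D5:**
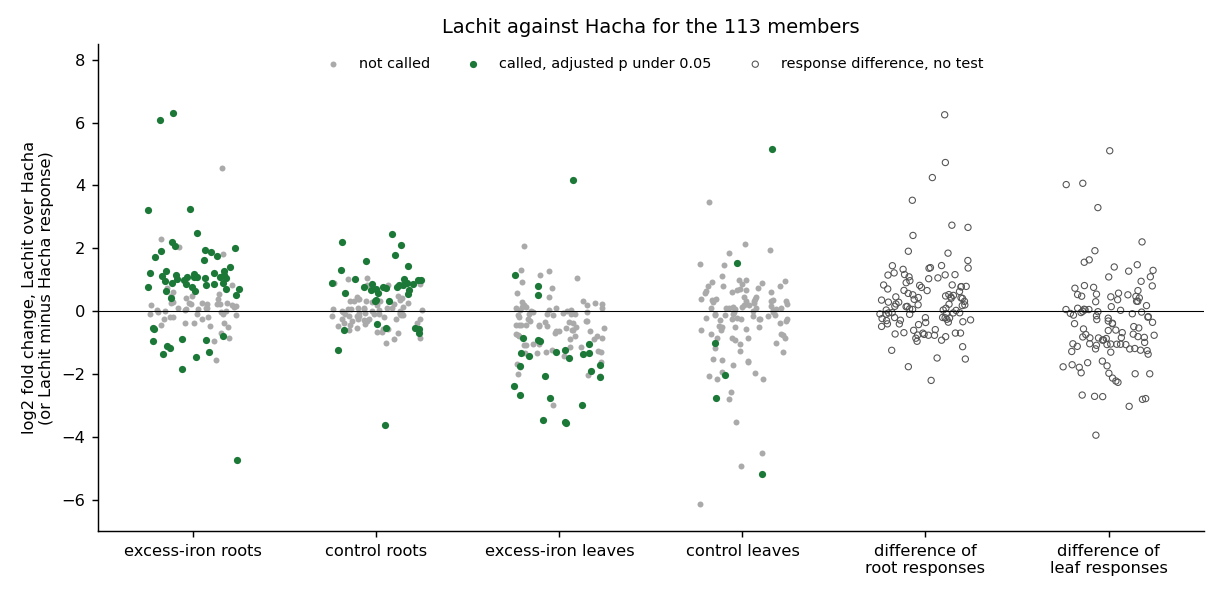
Log2 fold change of Lachit over Hacha for each of the 113 members in 4 groups (vertical axis), from edgeR fits per organ. Beside it stands the Lachit minus Hacha difference of the iron response in root and leaf. In the 4 groups green points passed an adjusted p of 0.05 in edgeR and grey points did not. The response differences are built from the contrasts that chose the members, carry no valid test and are open circles. In excess-iron roots 45 of 58 called members lie above 0, and in excess-iron leaves 23 of 27 lie below 0.

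The difference between the varieties in the iron response itself is built from the contrasts that chose the members, so it is given as a description, from fitted values. Counts of members past an adjusted p of 0.05 in edgeR are for that reason no valid test of the members. They are set beside the share of all genes tested, and nothing is read from them. In root 27 members were past it, beside 19.4% of all genes tested, 22 of them with a higher, that is less negative, response in Lachit (12.4% of all genes) and 5 with a lower one (6.98%). In leaf 7 were past it, beside 16.5% of all genes tested, none higher in Lachit (8.49% of all genes) and 7 lower (7.96%). At an unadjusted p below 0.05 the leaf count was 20, and DESeq2 gave 13. The root count was 6 in a fit of both organs, and it was 15 and 13 without excess-iron Hacha root library 1 or 2 and 17 and 16 without control Hacha root library 2 or 3. The leaf count lay between 1 and 15 when single libraries were left out.

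OS09G0472700 had 21.0, 11.5 and 5.67 TPM in excess-iron and 30.6, 34.1 and 39.7 TPM in control Lachit roots, and 0.717 and 1.94 TPM in excess-iron and 45.7, 97.9 and 89.9 TPM in control Hacha roots. Its fitted response was higher in Lachit by 4.25 ± 0.79 on the log2 scale (SE). For OS09G0472900 the fitted difference was 2.74 ± 0.48. For OS04G0666800 it was 4.73 ± 1.02, which depends on 1 read in excess-iron Hacha roots and is no bound; under the alternatives it lay between 0.96 and 7.49. OS08G0240500 had 1.85, 1.38 and 1.46 TPM in excess-iron and 23.8, 22.7 and 25.2 TPM in control Lachit roots, and 3.55 and 7.21 TPM in excess-iron and 36.0, 39.0 and 23.6 TPM in control Hacha roots, a fitted response difference of -1.52 ± 0.43 (SE). For OS06G0700601 it was -1.24 ± 0.34 and for OS05G0209600 -0.95 ± 0.29.

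In leaves OS08G0441500 had 38.7, 27.2 and 41.7 TPM in excess-iron and 23.4, 14.3 and 14.9 TPM in control Lachit, and 125, 38.2 and 99.9 TPM in excess-iron and 9.44, 7.30 and 9.84 TPM in control Hacha. The fitted difference of its rise, Lachit minus Hacha, was -2.71 ± 0.55 on the log2 scale (SE). OS01G0725400 had 12.8, 13.5 and 6.66 TPM in excess-iron and 1.89, 2.34 and 1.05 TPM in control Lachit leaves, and 42.1, 29.2 and 24.8 TPM in excess-iron and 1.69, 0.217 and 0.753 TPM in control Hacha leaves, a fitted difference of -3.02 ± 0.81. For OS03G0223400 it was -1.99 ± 0.52.

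Several members stood next to each other in the order of identifiers, which by convention follows position along a chromosome. With no measured gene between them were OS01G0323600 and OS01G0323775, OS02G0625300 and OS02G0625500, OS04G0666800 and OS04G0666900, OS05G0578500 and OS05G0578600, and OS09G0472700 and OS09G0472900. OS04G0460300 and OS04G0460400 had 1 measured gene between them, and OS05G0541100, OS05G0541400 and OS05G0541750 had 2 in each gap. Neighbours did not always share levels. OS02G0625300 averaged 214 ± 156 TPM in excess-iron and 77.8 ± 37.5 TPM in control Lachit leaves and 253 ± 95 TPM in excess-iron and 73.6 ± 48.2 TPM in control Hacha leaves (SD, n = 3 each). In roots it averaged 13.2 ± 4.0 TPM in excess-iron and 29.6 ± 4.4 TPM in control Lachit (SD, n = 3 each), and 10.4 ± 0.34 TPM in excess-iron (n = 2) and 45.7 ± 1.7 TPM in control Hacha (n = 3), so that it was a gene of higher leaf than root level. Its neighbour OS02G0625500 had its highest mean, 546 TPM, in control Lachit roots. OS04G0460300 averaged 193 TPM in excess-iron and 8.97 TPM in control Lachit leaves, while OS04G0460400 averaged 5.20 TPM in excess-iron Lachit leaves and had no read in control. Neighbouring genes may be near-identical copies between which estimated counts are divided, and reads of overlapping or antisense genes cannot be told apart with this kit, so single values within such pairs are uncertain.

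By identifier the members lay on all 12 chromosomes, with 21 on chromosome 1 (18.6% of members, where 14.6% of the 21086 genes lie), 18 on chromosome 4 (15.9% against 8.89%), 10 on chromosome 9 (8.85% against 5.30%), 11 on chromosome 3 (9.73% against 13.5%) and 2 on chromosome 10 (1.77% against 5.00%). These shares are a description. The median of the longest transcript was 1386 bases over the members and 1487 bases over the 21086 genes, and 82.3% of members had 1 annotated transcript against 77.8%.

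For 20 members the annotation holds more than 1 transcript, and in 10 of these the most abundant transcript was not the same in all 8 groups. OS12G0623900, the most abundant of the 10, has 3 annotated transcripts. The longest, of 2638 bases, made up 38.4% of the gene's TPM in excess-iron and 50.2% in control Lachit leaves, and 25.6% in excess-iron and 57.8% in control Hacha leaves (means of 3 libraries each). The shortest, of 1052 bases, made up 20.8% in excess-iron and 11.8% in control Lachit leaves, and 28.8% in excess-iron Hacha leaves, being listed near 0 in control Hacha leaves. Its share ranged from 7.02% to 36.5% between the excess-iron Lachit leaf libraries and from 15.8% to 42.4% between those of Hacha. In Hacha roots the same transcript held 20.2% under excess iron against 4.95% in control. In excess-iron leaves of both varieties the remaining transcript held a larger share than the longest or the shortest. The shortest thus did not become the main one there. No test was made of transcript shares.

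OS11G0525200 had a different main transcript in excess-iron and control roots of both varieties. Its 2052-base transcript held 56.7% of the gene's TPM in excess-iron and 41.1% in control Lachit roots, and 73.0% in excess-iron and 42.5% in control Hacha roots. The libraries did not overlap: shares lay between 53.3% and 61.9% in excess-iron and between 37.5% and 47.1% in control Lachit roots, and between 61.4% and 84.5% in excess-iron and between 34.8% and 48.1% in control Hacha roots. In leaves the same transcript was the main one in all 4 groups. OS02G0802500, OS01G0385400 and OS04G0430200 each had a second transcript whose rank changed between groups, but the shares of their transcripts overlapped widely between libraries in at least 1 of the varieties. For OS04G0430200 the wide overlap was in Lachit roots. In leaves its change ran in opposite directions in the varieties. Its 1661-base transcript held 57.6% in excess-iron and 44.5% in control Lachit leaves, and 48.8% in excess-iron and 61.9% in control Hacha leaves. Division of reads between transcripts of a gene is an estimate of the counting program, and no error of it is given in the files.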

How the data were processed

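Libraries were made with version 2 of the TruSeq RNA kit, per the labels' protocols; it does not mark strand. The submitters' processing notes name bcl2fastq, kallisto and the build IRGSP-1.0; versions and settings are not given in these sources. The authors deposited, for each library and transcript, an estimated count, not normalized, and a TPM value. Both were summed to 35679 genes from 42346 transcripts, and the count sums were rounded. Totals ran from 16659578 to 33386824 counts; their intervals and floors cover counting error only.

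The members and lists were chosen with earlier results of these data known. edgeR 4.0.16 (R 4.3.3) was fitted per organ over 4 groups (filterByExpr, TMM, robust quasi-likelihood), with Benjamini-Hochberg adjustment over all genes tested; the script was tested on simulated data. A CPM value is a count scaled to library size by TMM. Alternatives used DESeq2 1.42.0 and limma 3.58.1 on log2(TPM + 1). With library totals the median log2 change of all genes in roots shifted to -0.10 in Lachit and -0.31 in Hacha. In leaves it shifted to 0.29 in Lachit and -0.08 in Hacha. Changes in the fits are therefore read against the typical gene, whereas the rule and the TPM folds are not.

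Named genes were the 12 most abundant members, the 6 with the largest opposite change, up to 3 called members in each direction per test with at least 10 CPM, 2 on each side of the threshold, neighbours, and 5 with a changing main transcript. Other genes named with a small count were chosen after their values were seen. The gene classes and organ markers planned for naming were not used, since the reference table does not annotate the identifiers, and the organ labels were therefore not checked against markers. A table of TPM over all libraries was not used.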

Additional observations from a re-analysis of the deposited data

How the results depend on the processing

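The number of members depends most on the fold threshold, at 404 genes with 1.5-fold and 18 with 3-fold, and on the unit, at 71 with TMM-scaled CPM in place of TPM (64 shared with the 113). Other pseudocounts, minimum levels and medians gave between 87 and 165 genes, leaving out single libraries gave 97 to 136, and 54 members passed in all 23 of these. Requiring a log2 difference of 1 left 4 members in control roots, 13 in excess-iron roots, 1 in control leaves, 8 in excess-iron leaves, and 7 and 0 for the root and leaf response differences. With both organs in 1 fit the counts were 11 in control roots, 21 in excess-iron roots, 19 in control leaves, and 6 and 16 for the root and leaf response differences. DESeq2 called 15 in control leaves and 13 for the leaf response difference, where the fit without the 2 leaf libraries that stood apart called 24 and 18. The causes were not tested, and no share of all genes was computed under these alternatives. Leaving out single libraries gave 20 to 46 in control roots, 43 to 62 in excess-iron roots, 3 to 14 in control leaves, 12 to 36 in excess-iron leaves, 13 to 28 for the root response difference and 1 to 15 for the leaf response difference. Where 1 library of excess-iron Hacha roots was left, the fit took its spread from the other groups. The counts for the response differences rest on contrasts that chose the members and are a description. The named differences between varieties and the named response differences were pooled over the alternatives. In the pool 471 values stayed past the threshold in the same direction, 93 kept the direction but not the call, and none turned round. Since the pool holds response differences, it is a description. No paired analysis was possible because the labels number the libraries in 1 run and no number is shared between groups. The fit without the 2 leaf libraries and the scaling by library totals were chosen after seeing the data. Depth limits members with 3 reads or fewer in a group, for which ratios are bounds or intervals.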
